A study of Mus musculus with 4 samples.

Results

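The let-7 family was followed probe by probe in A3-1 mouse embryonic stem cells after siRNA against Lin28a. The set consists of the 8 let-7 guide strands on the array and their relative miR-98, chosen by name: mmu-let-7a, mmu-let-7b, mmu-let-7c, mmu-let-7d, mmu-let-7e, mmu-let-7f, mmu-let-7g, mmu-let-7i and mmu-miR-98. It covers 9 of 577 miRNA names and 18 of 1712 probes, with 2 probes for each miRNA and 10 spots for each probe on every array. A3-1 is an established line, grown here in 20% serum together with LIF, which sustains the undifferentiated state. The 2 control samples (siGFP) received an siRNA against GFP, which is not a mouse gene, and the 2 siLin28a samples received an siRNA against Lin28a. All were harvested after 48 h, and 100 ng of total RNA from each was labelled with Cy3 for 1 array. Nothing in the labels says that the replicates came from separate cultures, so p-values reflect only how these samples spread, and that spread may be technical. The array holds no Lin28a probe, so the depth of the knockdown is not known here. In such bulk RNA, fewer cells with a miRNA and less of it per cell cannot be told apart.

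let-7 miRNAs are guide strands that repress many growth and stem cell genes, among them Lin28a itself, Hmga2 and Myc. Their genes are transcribed in embryonic stem cells, but LIN28 proteins bind the let-7 precursor and block its processing, partly through the addition of a tail of uridines. LIN28A has a pair of zinc knuckles that bind a GGAG motif near the 3′ end of the precursor loop and a cold shock domain that binds a GNGAU-like motif in the loop. Because they differ by only a few bases, let-7 family members are also a hard case for hybridisation arrays.

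The 9 mature sequences are shown because the family shares one seed while the bases that tell its members apart lie outside it, where the probes have to distinguish them. The sequences are those of RefSeq for build GRCm38.p6, written 5′ to 3′, with the seed (bases 2 to 8) in capitals.
let-7a: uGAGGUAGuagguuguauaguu
let-7b: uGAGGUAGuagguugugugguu
let-7c: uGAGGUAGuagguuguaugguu
let-7d: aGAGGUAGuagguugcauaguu
let-7e: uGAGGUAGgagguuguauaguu
let-7f: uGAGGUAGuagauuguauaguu
let-7g: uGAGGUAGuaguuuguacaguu
let-7i: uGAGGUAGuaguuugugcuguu
miR-98: uGAGGUAGuaaguuguauuguu
All 9 carried the seed GAGGUAG. Of 455 array names that could be matched to a RefSeq mature sequence, these 9 and no other had it. Counting from the 5′ end and with let-7a first, let-7c differed from let-7a by A19G, let-7e by U9G and let-7f by G12A. let-7b differed by A17G and A19G, let-7d by U1A and U16C, let-7g by G12U and U18C, and miR-98 by G11A and A19U. let-7i was the most distant from let-7a, with G12U, A17G, U18C and A19U.

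The files give each probe's target as coordinates in build mm9. The 2 probes of each miRNA shared the coordinate on the 3′ side of the miRNA and differed by 1 base in length, with targets of 18 to 22 bases. The longer miR-98 target had the full 22 bases of the mature miRNA. If the shared end is the last base of the miRNA in the other cases too, the shortest targets, of 18 bases, began at base 5, and neither let-7d probe covered the first base of let-7d. Over the bases they cover, the targets of let-7a, b, c, d, e and f each had another member at 1 mismatch. The targets of let-7g, let-7i and miR-98 had their closest member at 2. How much one member bound to the probes of another was not tested.

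All 4 arrays lay on 1 slide and were scanned on 1 day, with siGFP at positions 1 and 3 and siLin28a at positions 2 and 4, in the order of the replicate numbers. No spot was saturated, and 32.5% to 38.8% of spots were well above background, the larger shares with siLin28a. The markers set for the labelled cell type, the miR-290 to miR-295 cluster, were all detected on all arrays (8 of 8). Their scaled signals summed to 66550 and 65650 for siGFP and 61580 and 61400 for siLin28a. After scaling, 6 of the 8 were lower on both siLin28a arrays, against 19.1% of all miRNAs, with no call. Without scaling, each was higher on both siLin28a arrays, so the direction depends on the scaling. Of other cell types, 3 of 4 neural, 2 of 5 fibroblast and 2 of 5 blood markers were detected on all arrays, and 0 of 4 muscle markers on any. Their scaled sums overlapped between groups except for muscle, which was below 0 on all arrays, at -12.4 and -13.7 against -9.66 and -1.77. Without scaling, the fibroblast marker miR-143 was at 20.3 and 19.1 in siGFP and 35.1 and 37.0 in siLin28a, with no call. The miR-9 signals lay between 3.49 and 5.06 and those of miR-145, miR-199a-5p and miR-223 at or below 1.43. The red cell marker miR-451, not detected on any array, was at -1.43 and -1.97 in siGFP and 3.32 and 4.74 in siLin28a. The groups overlapped for the brightest fibroblast and blood markers. miR-21 was at 321 and 250 against 355 and 304, and miR-142-3p at 94.0 and 64.9 against 116 and 63.2. After scaling, 2 of 5 fibroblast and 1 of 5 blood markers were higher on both siLin28a arrays, against 34.1% of all miRNAs. The part of any of these in the results was not tested.

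With siLin28a, let-7a, let-7f, let-7g, let-7e, let-7d and let-7i rose from signals that were not detected to signals detected on both arrays. let-7b stayed undetected and was higher on its total signal, close to the threshold (limma adjusted p = 0.0426), but passed on neither probe. Neither let-7c nor miR-98 passed the test. The scanner software's total gene signal, the sum over a miRNA's probes in intensity units, was used for each miRNA, and the processed signal, a spot's brightness above the fitted background, for each probe. Differences are given on a log2 scale with a constant of 20 intensity units. This scale needs no floor and accepts signals at or below 0, but it understates the changes of signals near or under 20. Of the 9 miRNAs, 7 were higher at a limma adjusted p below 0.05, against 2.43% of all 577 tested (14 miRNAs). In the other direction, 0 of the 9 and 0.173% of all (1 miRNA, miR-154*) passed, which makes 2.6% in either direction. Of the 18 probes, 12 were higher, against 0.818% of all 1712, where 14 were higher and 0 lower (57 had an unadjusted limma p below 0.05 in that direction). These 12 were both probes of let-7a, d, e, f, g and i, and the other 2 were the 2 probes of miR-344. The median difference was 1.00 over the 18 probes against 0.05 over all probes, and 1.17 over the 9 miRNAs against 0.06 over all miRNAs. Both siLin28a arrays lay above both siGFP arrays, after scaling, for 16 of the 18 probes and for 9 of the 9 miRNAs. The same held for 31.8% of all probes and 34.1% of all miRNAs, and the reverse for 14.3% and 19.1%. With 1 array left out, the count of probes depended on the siLin28a arrays. It was 0 without siLin28a replicate 1, where the smallest adjusted p over all probes was 0.052 and 14 of the 18 had an unadjusted p below 0.05. It was 4 without siLin28a replicate 2, and 9 when either siGFP replicate was left out. The count was also 5 with outlier spots kept, 2 with a floor and filter on dim probes, and 0 with normexp background correction, under which 7 of the 18 differences were above 0 and the median over all probes was -0.48. Over all miRNAs, the count of calls moved from 15 to 91 without siLin28a replicate 1, to 37 without siLin28a replicate 2 and to 30 without siGFP replicate 1.

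**Figure D1:**
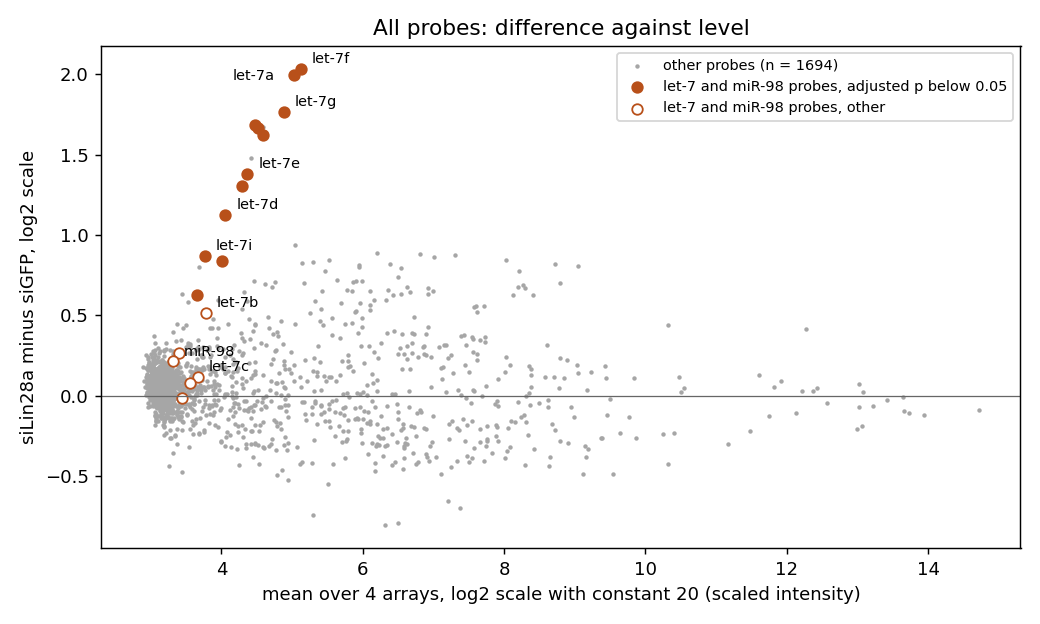
Difference between siLin28a and siGFP (log2 scale with a constant of 20) against the mean over the 4 arrays, for each of 1712 probes. Filled circles are the 12 let-7 probes with an adjusted p below 0.05, open circles the other 6 let-7 and miR-98 probes, and grey dots the remaining probes. The circles lie at the dim end, and the highest, for let-7f and let-7a, reach 2.03 and 2.0.

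let-7a-1, let-7f-1 and let-7d lie within a few kilobases of each other on mouse chromosome 13. let-7a and let-7f differ by a single base, G12A. The longer let-7a probe (A_54_P2466, target chr13:48633608-48633627 in mm9) had a mean processed signal of 9.94 and 8.96 on the siGFP arrays and of 68.4 and 67.4 on the siLin28a arrays. The shorter let-7a probe (A_54_P2467) had 5.26 and 4.19 against 41.2 and 40.8. The groups were far apart for both, and the replicates of each group lay close together. The differences were 2.0 (SE 0.13, limma adjusted p = 0.000336) for the longer and 1.66 (SE 0.13, limma adjusted p = 0.000462) for the shorter probe on the log2 scale. Even single spots did not overlap. The highest siGFP spot of the longer probe was at 15.3 and its lowest siLin28a spot at 55.8. 

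let-7f gave nearly the same picture as let-7a. let-7f has hairpins on chromosomes 13 and X that give the same mature sequence, so its probes cannot tell them apart. Its longer probe (A_54_P2472, target chr13:48633258-48633278) read 11.4 and 9.94 with siGFP and 74.1 and 74.2 with siLin28a. Its shorter probe (A_54_P2473) read 4.50 and 3.78 against 40.6 and 39.8. The differences were 2.03 (SE 0.13, limma adjusted p = 0.000336) and 1.68 (SE 0.12, limma adjusted p = 0.000462), the first of them the highest of all 1712 probes. let-7d, whose opposite strand is also on the array, was dimmer. Its longer probe (A_54_P2453, target chr13:48631447-48631465) read 2.73 and 1.77 with siGFP and 24.0 and 20.1 with siLin28a, a difference of 1.13 (SE 0.13, limma adjusted p = 0.00480). Its shorter probe (A_54_P2452) read 0.352 and 0.169 against 10.3 and 9.5, and its difference of 0.63 (SE 0.11) was close to the threshold (limma adjusted p = 0.0489). It was lost in 10 of 15 alternatives, without each of the 4 arrays in turn among them.

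**Figure D2:**
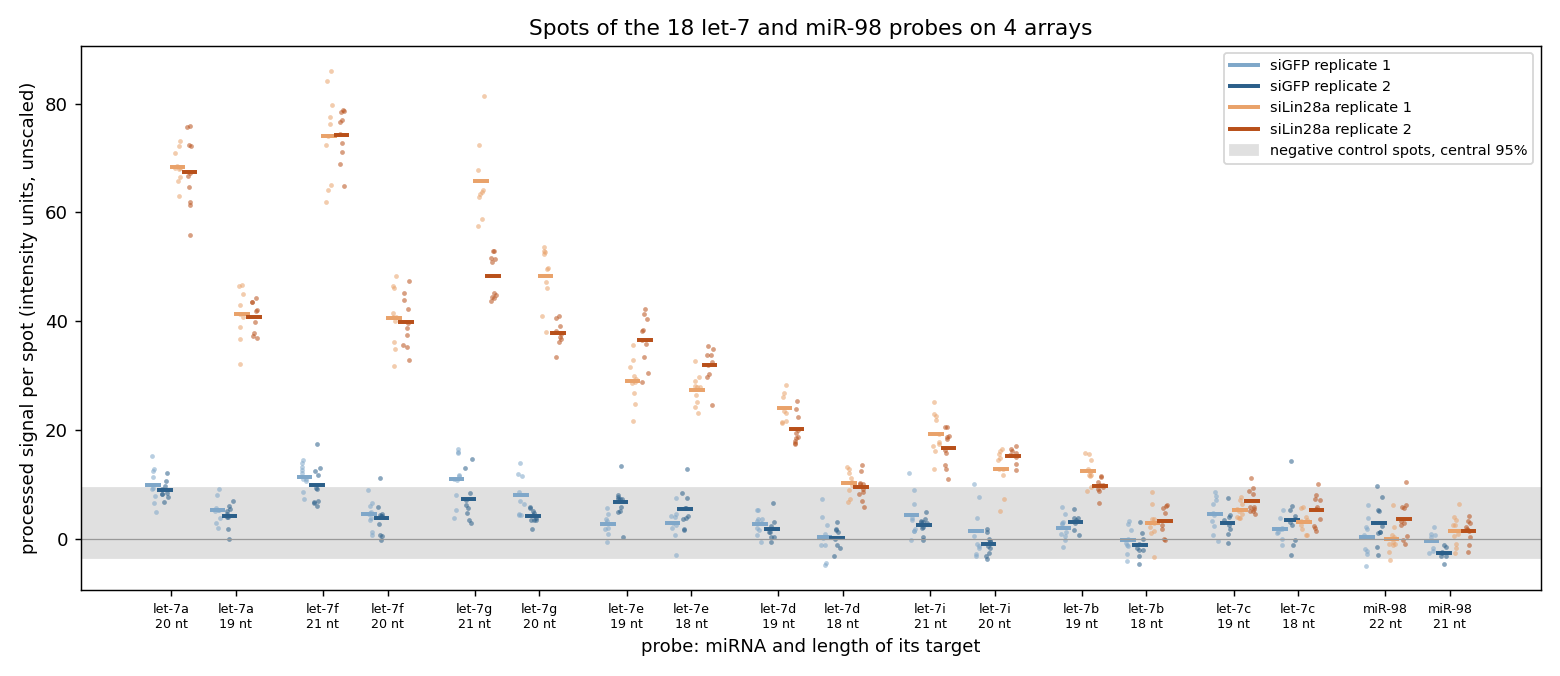
Processed signal of every spot without an outlier flag for the 18 let-7 and miR-98 probes, in unscaled intensity units, by array (colour), with the mean of each array as a bar. The grey band spans the widest range that the central 95% of negative control spots covered on the arrays. The siLin28a spots of let-7a, f, g and e stand clear of the band, and all spots of let-7c and miR-98 lie in or near it.

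let-7g lies on chromosome 9 within the span of the protein-coding gene Wdr82. Its longer probe (A_54_P2250, target chr9:106081178-106081198) read 11.0 and 7.31 with siGFP and 65.8 and 48.2 with siLin28a, and its shorter probe (A_54_P2249) read 8.02 and 4.13 against 48.3 and 37.8. Replicate 1 was above replicate 2 in both groups and for both probes. The differences were 1.77 (SE 0.19) and 1.62 (SE 0.17), each with a limma adjusted p = 0.00377.

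let-7e lies on chromosome 17 within the span of Spaca6, next to miR-99b and miR-125a, with which it shares a primary transcript. Its longer probe (A_54_P2469, target chr17:17967333-17967351) read 2.64 and 6.70 with siGFP and 29.0 and 36.6 with siLin28a, and its shorter probe (A_54_P2468) read 2.81 and 5.50 against 27.4 and 31.9. Here replicate 2 was above replicate 1 in both groups, the reverse of let-7g. The differences were 1.38 (SE 0.15, limma adjusted p = 0.00385) and 1.31 (SE 0.13, limma adjusted p = 0.00336). No spot of let-7g or let-7e overlapped between the groups, on either probe. How often this held over all probes was not determined.

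let-7i, from a gene of its own on chromosome 10, rose from mean siGFP signals of 4.33 or less. Its longer probe (A_54_P2254, target chr10:122422754-122422774) read 4.33 and 2.5 with siGFP and 19.3 and 16.6 with siLin28a. Its shorter probe (A_54_P2253) read 1.35 and -1.06 against 12.7 and 15.3. The differences were 0.84 (SE 0.13, limma adjusted p = 0.0251) and 0.87 (SE 0.12, limma adjusted p = 0.0130). Array means were well apart, while single spots overlapped on both probes. Neither probe passed without any one of the 4 arrays, with adjusted p of 0.0562 to 0.28 over those fits.

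let-7b and let-7c-2 lie close together on chromosome 15, within the span of the long non-coding RNA Lncppara. The longer let-7b probe (A_54_P1290, target chr15:85537758-85537776) read 1.96 and 3.1 with siGFP and 12.4 and 9.64 with siLin28a, and the shorter (A_54_P1289) read -0.299 and -1.20 against 2.96 and 3.29. Both siLin28a arrays lay above both siGFP arrays on each probe, as they did after scaling for 31.8% of all probes. The differences of 0.52 (SE 0.12, limma adjusted p = 0.136) and 0.27 (SE 0.09, limma adjusted p = 0.314) did not pass probe by probe, over 1712 tests, while let-7b passed on its total gene signal, over 577.

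let-7c has hairpins on chromosomes 15 and 16 that give the same mature sequence. Its longer probe (A_54_P1291, target chr15:85537049-85537067) read 4.46 and 2.96 with siGFP and 5.30 and 6.93 with siLin28a, and its shorter probe (A_54_P1292) read 1.74 and 3.45 against 3.07 and 5.33. The groups overlapped on the shorter probe. The differences were 0.12 (SE 0.11, limma adjusted p = 0.646) and 0.08 (SE 0.11, limma adjusted p = 0.801). The let-7c targets differ from let-7a by a single base, A19G.

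miR-98 lies on chromosome X within the span of Huwe1, next to let-7f-2. Its shorter probe (A_54_P1340, target chrX:148347773-148347793) read -0.381 and -2.71 with siGFP and 1.47 and 1.4 with siLin28a, a difference of 0.22 (SE 0.10, limma adjusted p = 0.386). Its longer probe (A_54_P3783) read 0.257 and 2.90 against -0.117 and 3.58, and its difference of -0.01 (SE 0.12, limma adjusted p = 0.983) was the only one of the 18 below 0. It turned above 0 with no scaling between arrays and when siGFP replicate 2 or siLin28a replicate 1 was left out. A signal this close to the negative controls does not show whether miR-98 changed.

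The negative control spots show where a signal without a target lies. On the siGFP arrays the means of the 7 negative control probes reached 2.57 and 5.51, and on the siLin28a arrays 4.76 and 4.10. Of single negative control spots, the central 95% reached up to 7.55 and 9.37 with siGFP and 9.29 and 8.54 with siLin28a. Of the 18 let-7 and miR-98 probes, 11 and 4 had a mean above the highest negative control probe with siGFP, against 14 and 15 with siLin28a. The 4 on siGFP replicate 2 were the longer probes of let-7a, f, g and e. Weak let-7 signal in control cells was thus near the limit of what these arrays separate from background. Of 180 let-7 and miR-98 spots per array, 2 and 1 were well above background with siGFP, and 93 and 97 with siLin28a.

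Among 516 other probes in the same range of siGFP means (-1.55 to 10.7), the median change in unscaled signal was 0.598 units and the 95th percentile 5.58 units. The median over the let-7 and miR-98 probes was 17.2 units, and 13 of the 18 lay above that 95th percentile. Of the 516, 27.7% were higher on both siLin28a arrays. The largest change among them was 39.4 units, for miR-344, and 3 of the 18 exceeded it.

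**Figure D3:**
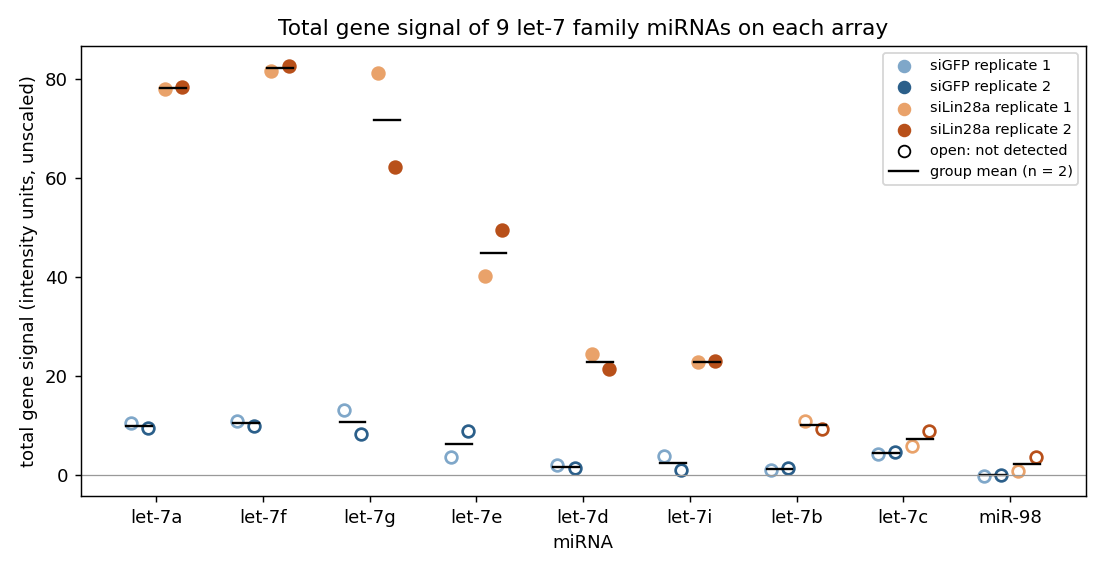
Total gene signal of each let-7 family miRNA on the 4 arrays, in unscaled intensity units, with group means as bars. Filled points were called detected by the scanner software and open points were not. Every siGFP point is open, and the siLin28a points are filled for let-7a, f, g, e, d and i only.

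On the total gene signal, let-7a read 10.5 and 9.59 with siGFP and 78.1 and 78.3 with siLin28a, and let-7f read 11.0 and 9.99 against 81.8 and 82.6. Their differences were 2.09 (SE 0.16) and 2.13 (SE 0.16) on the log2 scale, each with a limma adjusted p = 8.65e-06. The difference was 1.92 (SE 0.19, limma adjusted p = 0.000117) for let-7g and 1.61 (SE 0.18, limma adjusted p = 0.000204) for let-7e. It was 1.17 (SE 0.15, limma adjusted p = 0.000495) for let-7d and 1.12 (SE 0.15, limma adjusted p = 0.000870) for let-7i. let-7b, at 1.15 and 1.38 against 10.9 and 9.37, differed by 0.54 (SE 0.13, limma adjusted p = 0.0426). That call was lost in 6 of 12 alternatives, without siGFP replicate 1 (adjusted p = 0.185) and without siGFP replicate 2 (adjusted p = 0.309) among them. The differences of let-7c (0.12, SE 0.13, limma adjusted p = 0.623) and miR-98 (0.15, SE 0.11, limma adjusted p = 0.458) did not pass. Because the siGFP values of all 9 lie where the log2 scale with its constant is compressed, the order of these differences does not rank the fold changes of the miRNAs.

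Fold changes were computed against, on each siGFP array, the higher of the miRNA's own scaled signal and the lowest signal detected there, since no member was called detected with siGFP. For let-7d this raised both siGFP values, and for let-7e and let-7i 1 of them. Their folds are therefore lower bounds relative to that lowest signal only. The lowest signal, 4.2 and 1.85 scaled units on the siGFP arrays, is no detection limit. let-7a, let-7f and let-7g were above it on both of these arrays and were not detected. By total gene signal, let-7d was at least 6.89-fold, let-7i at least 6.72-fold and let-7e at least 5.83-fold higher from arithmetic means, and at least 7.45-fold, 7.34-fold and 6.33-fold from means of log2 values. For let-7a, let-7f and let-7g, the own signal was above the lowest detected one on both siGFP arrays, so their folds are estimates from dim signals and no bounds. They were 6.41 for let-7a, 6.44 for let-7f and 5.51 for let-7g from arithmetic means, and 6.42, 6.45 and 5.59 from means of log2 values. By probe, the dimmest signal well above background was much brighter, at 22.6 and 19.2 scaled units with siGFP, and the bounds were smaller. For the longer probes they were at least 3.04-fold for let-7a, 3.32-fold for let-7f, 2.52-fold for let-7g and 1.46-fold for let-7e. For the shorter probes they were lower, at least 1.83-fold for let-7a, 1.80-fold for let-7f, 1.91-fold for let-7g and 1.32-fold for let-7e. The probes of let-7d and let-7i were too close to that limit on the siLin28a arrays for a bound above 1 or were not well above background on both. Of all 577 miRNAs, 2.43% were detected in both siLin28a samples but in neither control, 14 in number, and 6 of the 9 let-7 family miRNAs were among them. The reverse pattern was found for 0 miRNAs. Detection was called without scaling, and more miRNAs of any kind were detected with siLin28a, 263 and 289 against 246 and 257 with siGFP.

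Motifs that LIN28 proteins bind were searched for in 11 hairpins of the family, those matched in RefSeq with both arms. In the loop between the mature arms, GGAG was found in 8 of the 11, and GNGAU or GNGAC sharing no base with a GGAG in 5. Over 644 mouse hairpins with both arms annotated, 8.07% had GGAG, and the same share had GNGAU or GNGAC apart from GGAG. Loops of the family were 23 to 36 bases long against a median of 16, which alone gives a short motif more room. The search used the RNA strand only. The hairpins below are shown because they differ in these motifs, in capitals, and because their mature products differed in whether they were detected with siLin28a. The other hairpins, let-7c-1 with its GGAG among them, are not shown.
let-7a-1: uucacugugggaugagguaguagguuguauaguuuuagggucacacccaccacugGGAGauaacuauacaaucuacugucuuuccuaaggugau
let-7f-1: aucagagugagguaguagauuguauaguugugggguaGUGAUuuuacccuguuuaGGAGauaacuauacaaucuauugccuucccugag
let-7b: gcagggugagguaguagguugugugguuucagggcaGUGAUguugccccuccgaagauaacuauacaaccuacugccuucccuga
let-7c-2: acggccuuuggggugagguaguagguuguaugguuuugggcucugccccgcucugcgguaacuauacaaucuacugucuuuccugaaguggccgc
miR-98: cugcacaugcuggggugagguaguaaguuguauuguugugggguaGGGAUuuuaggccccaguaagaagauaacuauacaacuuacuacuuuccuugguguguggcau
In GRCm38.p6 these lie at chr13:48538179-48538272 and chr13:48537829-48537917 on the minus strand, and at chr15:85707319-85707403, chr15:85706603-85706697 and chrX:151913214-151913321 on the plus strand. The 3 hairpins without GGAG in the loop were those of let-7b, let-7c-2, which had neither motif, and miR-98. Their mature products were the 3 that were not detected on any array, though let-7c also comes from let-7c-1, which has GGAG. All hairpins of the 6 detected miRNAs that were matched had GGAG. Those of let-7d, let-7f-1 and let-7i had the other motif as well, and those of let-7a-1, let-7e, let-7f-2 and let-7g did not. This is a description of sequence beside signal. Whether any motif bears on the differences was not tested.

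The opposite strands of the same hairpins gave no signal. Of 7 on the array, 0 were detected on any array, with total gene signals between -5.45 and 0.953, and 0 passed the test in either direction. Their median difference was 0.08 against 0.06 over all miRNAs. After scaling, 4 of the 7 were higher and 1 lower on both siLin28a arrays, against 34.1% and 19.1% of all miRNAs. At signals this close to 0, that order shows no change. let-7d* was at -3.0 and -2.02 with siGFP and -2.34 and -1.17 with siLin28a.

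Of the miRNAs that share primary transcripts with let-7 members, 8 are on the array. None passed on its total gene signal in either direction, and 3 were detected. All 3 come from the let-7e transcript. miR-99b was at 43.2 and 58.5 with siGFP and 91.9 and 127 with siLin28a. Its difference was 0.79 (SE 0.20) with a limma adjusted p = 0.0569. For miR-125a-5p it was 0.81 (SE 0.22, limma adjusted p = 0.083). The other arm of that hairpin, miR-125a-3p, had 0.23 (SE 0.17, limma adjusted p = 0.458). After scaling, both siLin28a arrays lay above both siGFP arrays for miR-99b and miR-125a-5p, while the groups overlapped for miR-125a-3p. miR-99a, miR-100 and the miR-125b strands, whose genes lie near let-7c-1 and let-7a-2, were not detected on any array.

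Other miRNAs were searched for the same profile by the distance, over 4 arrays on the log2 scale, to the mean profile of the 9. That mean was 3.75 and 3.71 with siGFP and 4.95 and 4.92 with siLin28a. miR-186 was the closest at a distance of 0.757, with total gene signals of 11.9 and 13.1 against 30.2 and 34.6 and a difference of 0.77 (SE 0.16, limma adjusted p = 0.0252). It was followed by miR-466h at 0.859, miR-718 at 0.906, miR-297b-3p at 0.971 and miR-362-3p at 0.973, none of which passed. Within the family, the distances ran from 0.53 for let-7i to 2.15 for miR-98, so the mean profile describes no single member closely.

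**Figure D4:**
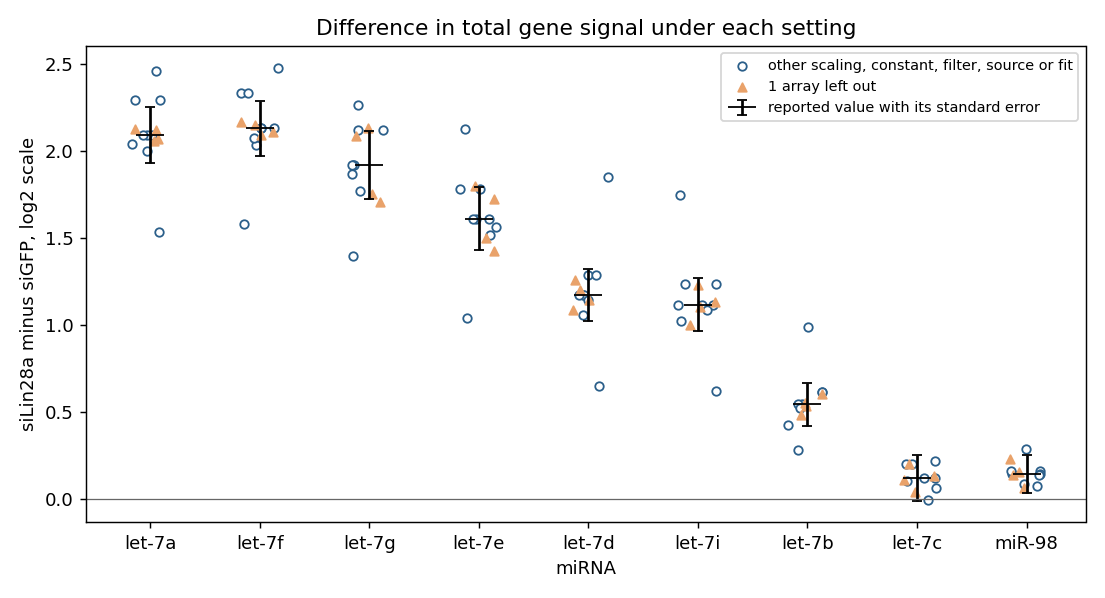
Difference in total gene signal between siLin28a and siGFP (log2 scale) for each miRNA as reported, with its standard error, and under each alternative, with open circles for other settings and triangles for fits without 1 array. let-7a to let-7b stay above 0 in all of them, while one let-7c value, with quantile normalization, falls just below 0. Normexp, the floor, kept outlier spots and the median over spots were run by probe only and are not shown here.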

How the data were processed

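miRNA levels were measured on 4 single-colour arrays. The authors deposited Agilent Feature Extraction files with intensity values (version 9.5.1.1 per the file headers, 9.5.3.1 per the submitters' processing notes). Their table of total gene signals, also deposited intensity values, was an alternative. Groups come from the sample titles. The labels state no test.

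Spots flagged as outliers (3.21% to 4.32%) were left out, and processed signals were averaged per probe. Arrays were scaled by the 75th percentile over the 426 probes well above background (at least 50% of spots) on all arrays, or the 242 miRNAs detected on all. Values x became log2((x + sqrt(x squared + 20 squared))/2), with no floor and no filter. The test was limma's (version 3.58.1, R 4.3.3; eBayes with a trend, two-sided, Benjamini-Hochberg over all probes or all miRNAs, threshold 0.05), with 2 residual degrees of freedom and 5.9 prior degrees for probes and 9.46 for miRNAs. The steps were tested on simulated data. The 2 siGFP arrays shared no identical probe value, nor did the 2 siLin28a arrays.

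Members and lists were chosen with earlier results of these data known. The text names every member, its probes, its listed partners and the 5 closest profiles. miR-344, miR-154*, miR-143, miR-9, miR-145, miR-199a-5p, miR-223 and miR-451 were added after their values were seen. Alternatives changed the constant, scaling, background correction, filter, spot average, outliers, prior, replicate block and arrays used.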

Additional observations from a re-analysis of the deposited data

How the results depend on the processing

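Of the 7 miRNAs called by total gene signal, let-7a and let-7f stayed called in 13 of 13 alternatives each, and let-7d, e, g and i in 11 of 13 each. The exceptions were quantile normalization and the authors' deposited table without scaling, each with 2 calls in the family. Normexp, the floor, kept outlier spots and the median over spots were not among these alternatives. They were run by probe only, so the total gene signal was not tested against them. Over all miRNAs, the calls (15) became 29 with no scaling, 9 with no trend, 8 with the filter on dim miRNAs, 2 with quantile normalization and 3 with the deposited table, and they ranged from 14 to 91 with 1 array left out (6 to 7 in the family).

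By probe, the 12 calls in the family became 5 with outlier spots kept, 2 with the floor and filter on dim probes (the longer let-7a and let-7f probes) and 0 with normexp, also when normexp was fitted without outlier spots, which was chosen after seeing the data. Over all probes, the 14 calls became 5 with outlier spots kept and 2 with the floor and filter. With 1 array left out, they ranged from 0 to 13 (0 to 9 in the family). Under normexp the median log2 value of siGFP replicate 2 was 6.99 against 5.985, 6.02 and 6.03 on the other arrays, and the median difference over all probes was -0.48 (-0.51 without outlier spots). Normexp, and then normexp without outlier spots, put these probes below 0: -0.44 and -0.47 for let-7b (18-base target), -0.33 and -0.35 for let-7b (19), -0.44 and -0.46 for let-7c (19), -0.45 and -0.48 for let-7c (18), -0.30 and -0.32 for let-7d (18), -0.12 and -0.14 for let-7d (19), -0.013 and -0.031 for let-7e (18), -0.26 and -0.28 for let-7i (20), -0.22 and -0.24 for let-7i (21), and -0.48 and -0.51 for miR-98 (21). The longer miR-98 probe turned to 0.0105 with no scaling, and to 0.09 and 0.11 with siGFP replicate 2 or siLin28a replicate 1 left out (lowest -0.13, without siLin28a replicate 2). let-7c turned to -0.0050 on its total gene signal with quantile normalization.

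With the replicate number as a block, calls rose to 145 over all probes (13 in the family) and 66 over all miRNAs (7 in the family). Deviations of same-numbered arrays from their group means had a correlation of 0.432, but 2 pairs cannot show that the numbers pair the samples, and the numbers go with position on the slide. The slide was not fitted as a block since all arrays lie on 1 slide. With 1 array left out, 1 residual degree of freedom remains and the lone array is assumed to vary like the others. The 4 such fits on miRNAs, counted among the alternatives, had infinite prior degrees of freedom. A miRNA's own spread therefore had no weight in them, and their calls add little support. Signals below about 20 units carry the least information. The arithmetic means behind the second set of fold changes were chosen after seeing the data.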
